A study of Homo sapiens with 6 samples.

Results

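The mitochondrial messenger and light-strand transcripts were followed here in iCLIP of QKI-5, an isoform of the RNA-binding protein Quaking that is found in the nucleus. iCLIP links protein and RNA with UV light, pulls the protein down and maps, to the nucleotide, where reverse transcription stopped at the link. Members are the crosslinked positions of the mitochondrial chromosome (chrM, build hg19, counted from 1) from 3231 to 16023 on the plus strand, and all its crosslinked positions on the minus strand. They number 3449 positions on the plus strand and 1139 on the minus strand, 4588 of the 7814183 strand-specific positions found in any of the 6 libraries. The rule used only strand and coordinate, not a measured value, though it was chosen with earlier results of these data known.

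All libraries came from the established human cell line BEAS2B (bronchial epithelium), irradiated with UV at 150 mJ per square centimetre. Per the labels, 3 QKI-5 iCLIP libraries were made with a self-made antibody against QKI-5 and 3 control libraries without antibody. Per the labels' protocols RNA was cut with RNase A at a high or a low dilution, and which library had which is not given there. Nothing in the labels ties the replicates to separate cultures. Each p-value thus reflects the spread among these libraries alone, which may be technical. Where 3 values of a group follow each other, they are those of replicates 1, 2 and 3 in that order.

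The mitochondrial genome is a small circle transcribed from both strands into long precursors that are cut at the tRNAs. The plus strand of the reference carries the sequence of the ribosomal RNAs and of most messengers and tRNAs. Transcription in the opposite sense, the light-strand transcript, yields the messenger ND6, several tRNAs and much antisense RNA that is normally removed quickly. The messengers encode core subunits of the respiratory chain and of ATP synthase, and the transcripts are made and processed inside mitochondria, whereas QKI-5 is known as a nuclear splicing regulator.

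In the order of the RefSeq gene table (GRCh38.p14, used for names and neighbours only) RNR2, the large ribosomal RNA, is followed by TRNL1 and then by ND1, ND2, COX1, COX2, ATP8, ATP6, COX3, ND3, ND4L, ND4, ND5, ND6 and CYTB, with tRNAs between them and TRNP last. This table comes from another build than the files. No position was therefore assigned to a gene, and no sequence is shown. The stretch was cut into 13 plus-strand windows of 1000 nt (the last of 793 nt), numbered from its first position on the RNR2 side, and the minus strand into 17 windows of 1000 nt (the last of 554 nt, up to position 16554, the highest crosslinked position). Markers of bronchial epithelium were not analysed here for the same reason.

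The QKI-5 libraries held 2143279 to 7283982 crosslink events and the controls 29810 to 137926. Values are given as EPM, events per 1000000 events of the library. A single event is 7.25, 24.1 and 33.5 EPM in the controls, against 0.137 to 0.467 EPM in the QKI-5 libraries, so control values move in coarse steps. A pooled ratio is the QKI-5 events over the control events, each summed over the group's libraries and divided by their summed totals. Intervals below are 95% exact (Clopper-Pearson) and cover counting error only.

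On the plus-strand messenger stretch the share of events overlapped between libraries with and without the antibody. It held 9820, 2523 and 3950 events in the QKI-5 libraries, which were 0.135% (0.132 to 0.138), 0.118% (0.113 to 0.122) and 0.137% (0.132 to 0.141) of each library. The controls held 158, 34 and 36 events there, or 0.115% (0.0974 to 0.134), 0.0820% (0.0568 to 0.115) and 0.121% (0.0846 to 0.167). Control replicate 3 lay above QKI-5 replicate 2, so the groups overlapped. The QKI-5 mean was 0.130 ± 0.0105% and the control mean 0.106 ± 0.0208% (SD, n = 3 each), which is 1.23 times as high with the antibody. A two-sided exact permutation test over the 6 libraries gave p = 0.2, where 0.1 is the smallest p that 3 against 3 allows (Benjamini-Hochberg adjusted p = 0.25 over 10 such tests). Pooling the libraries of a group gave a ratio of 1.21 with a counting interval of 1.07 to 1.39, which leaves out the spread between libraries.

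The minus strand carried less, and here too the groups overlapped. It held 2888, 1023 and 982 events in the QKI-5 libraries, or 0.0396%, 0.0477% and 0.0340% of each library. The controls held 47, 16 and 6 events, or 0.0341% (0.0250 to 0.0453), 0.0386% (0.0221 to 0.0626) and 0.0201% (0.00739 to 0.0438). QKI-5 replicate 3 lay just under control replicate 1 and under control replicate 2. The means were 0.0405 ± 0.00691% and 0.0309 ± 0.00962% (SD, n = 3 each, two-sided exact permutation p = 0.3, adjusted p = 0.333), with a pooled ratio of 1.21 (0.95 to 1.55). With each position counted once in place of each event, both strands took a smaller share with the antibody than without it, at a log2 ratio of -0.73 for the messenger stretch and -0.64 for the minus strand. The direction of both shares thus depends on whether events or positions are counted. How many positions are seen depends on depth, in which the groups differ strongly, so the position count cannot decide the direction. In QKI-5 replicate 1, the deepest library, the messenger stretch took 0.0468% of positions, against 0.0950% and 0.0786% in replicates 2 and 3.

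The balance between the strands also overlapped between the groups. Minus-strand events were 0.294, 0.405 and 0.249 of the plus-strand messenger events in the QKI-5 libraries, and 0.297, 0.471 and 0.167 in the controls. The means were 0.316 ± 0.0807 and 0.312 ± 0.152 (SD, n = 3 each, two-sided exact permutation p = 1, the control spread covering the whole QKI-5 range).

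The part of the plus strand before the messenger stretch, positions 1 to 3230 on the side of the ribosomal RNAs, had its groups in the opposite order. It took 0.866%, 1.60% and 1.04% of events in the QKI-5 libraries and 2.25%, 1.68% and 1.60% in the controls. The highest QKI-5 value, replicate 2, lay within 0.01 percentage points of the lowest control, replicate 3, and all others were farther apart (two-sided exact permutation p = 0.1, adjusted p = 0.167). Within a library, the messenger stretch carried 0.156, 0.0738 and 0.131 events per event of the ribosomal side with the antibody. Without it the ratio was 0.0510, 0.0488 and 0.0756. The mean ratio was 0.120 ± 0.0421 against 0.0585 ± 0.0149 (SD, n = 3 each), 2.06 times as high, but QKI-5 replicate 2 lay below control replicate 3 (two-sided exact permutation p = 0.2, adjusted p = 0.25).

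For the minus strand the same ratio to the ribosomal side was 0.0458, 0.0299 and 0.0327 in the QKI-5 libraries and 0.0152, 0.0230 and 0.0126 in the controls. Here each QKI-5 library lay above each control, with means of 0.0361 ± 0.00848 and 0.0169 ± 0.00539 (SD, n = 3 each, two-sided exact permutation p = 0.1, adjusted p = 0.167). Per unit of length the ribosomal side was far denser than the messenger stretch in every library. It carried 25.4, 53.7 and 30.2 times the EPM per kb in the QKI-5 libraries and 77.7, 81.2 and 52.4 times in the controls.

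**Figure D1:**
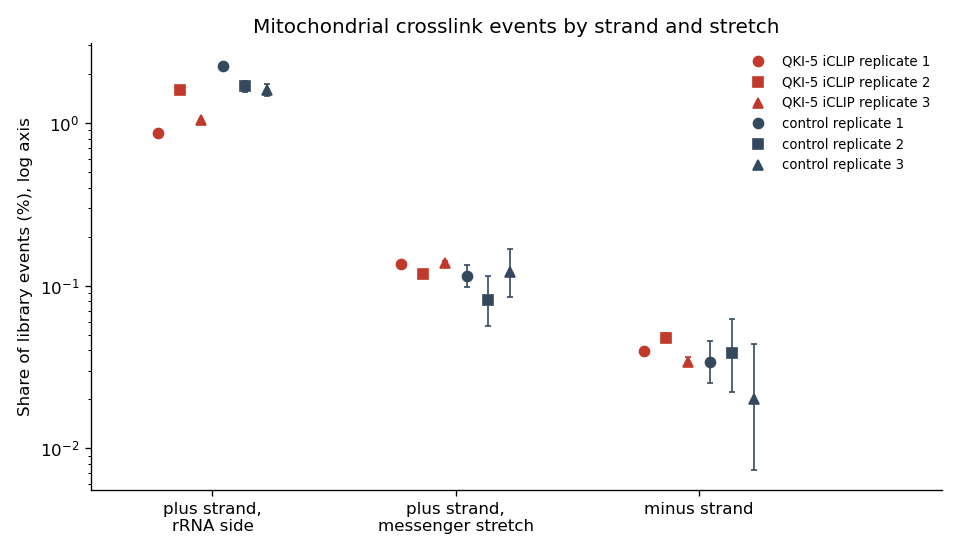
Share of each library's crosslink events (%, log axis) on the plus strand before position 3231 (ribosomal RNA side), on the plus-strand messenger stretch and on the minus strand, 1 point per library with its 95% exact counting interval. The messenger and minus-strand points of both groups overlap, while on the ribosomal RNA side the 3 controls (1.60 to 2.25%) lie at or above the QKI-5 libraries (0.866 to 1.60%).

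Along the plus strand the signal had a step between the fifth and the sixth window. The first 5 windows, 3231 to 8230, carried 24.1, 33.9 and 24.5 EPM per kb in the QKI-5 libraries, and the 8 windows from 8231 to 16023 carried 158, 129 and 160 EPM per kb. The later windows were thus 6.53, 3.82 and 6.52 times as dense. The controls showed a step in the same place, by 8.57, 2.09 and 3.98 times, on only 24 and 204 control events in all. This split was chosen after the values were seen, so it is given without a test. In the low part 13.5% of nucleotides carried an event in any QKI-5 library, and in the high part 35.1%.

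The low part also held the longest stretches without any QKI-5 event. These ran from 5494 to 5800 (307 nt), from 4441 to 4695 (255 nt) and from 6689 to 6899 (211 nt), and the controls had no event there either.

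Within the low part the QKI-5 means of the 5 windows spanned 25.0 to 33.5 EPM. The second window, 4231 to 5230, held 16.3, 29.9 and 29.4 EPM in the QKI-5 libraries and 21.8, 24.1 and 33.5 EPM in the controls, so the groups overlapped. The third window, 5231 to 6230, had the lowest mean of the strand, with 17.2, 34.5 and 23.2 EPM in the QKI-5 libraries. None of the controls had an event there. Taking 3 events in the 3 controls together as the limit, its pooled level was at least 1.51-fold higher with the antibody. This leaves out the spread between libraries, and 1 event in control replicate 3 would be 33.5 EPM.

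The high part held the 3 windows with most QKI-5 signal. They were ranked by that signal, so their comparison with the controls is a description. The eleventh window, 13231 to 14230, held 256, 167 and 200 EPM in the QKI-5 libraries and 50.8, 48.2 and 134 EPM in the controls, a pooled ratio of 3.66 (2.14 to 6.88) on 13 control events. Every QKI-5 library lay above every control there. The eighth window, 10231 to 11230, held 255, 128 and 200 EPM against 109, 48.2 and 168 EPM, and here control replicate 3 lay above QKI-5 replicate 2. The sixth window, 8231 to 9230, held 187, 103 and 252 EPM against 65.3, 48.2 and 134 EPM, again with 1 control above the lowest QKI-5 library.

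Other dense windows did not share that order. The seventh window, 9231 to 10230, held 146, 158 and 164 EPM with the antibody and 276, 96.4 and 302 EPM without it. Its pooled ratio was 0.624 (0.473 to 0.842), or 0.835 without control replicate 1, which held 38 of the 51 control events. The genome-wide fit described next put its log2 fold change at 0.26 with TMM scaling and at -0.55 with library totals. The ninth, 11231 to 12230, held 78.0, 97.5 and 107 EPM in the QKI-5 libraries and 189, 96.4 and 67.1 EPM in the controls. Its pooled ratio of 0.577 (0.406 to 0.848) rests on control replicate 1 and is 1.05 without it. The tenth, 12231 to 13230, had a pooled ratio of 0.907 (0.632 to 1.35), or 1.04 without control replicate 2. The log2 fold changes of these windows in that fit were 0.22 and 0.80. The twelfth window, 14231 to 15230, had the lowest QKI-5 mean of the high part, 72.6 EPM, and the shorter thirteenth, 15231 to 16023, one of 120 EPM, or 151.02 EPM per kb. Controls held 72.5, 24.1 and 33.5 EPM in the twelfth and 167, 48.2 and 134 EPM in the thirteenth. Of the 13 windows, 2 had every QKI-5 library above every control, beside 43.4% of all 1 kb windows tested across the genome, and none had every QKI-5 library below, against 3.19%.

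A fit of all strand-specific 1 kb windows of the genome placed these values against the rest. The quasi-likelihood test of edgeR with TMM scaling tested 6750 windows, of which it called 38.6% higher and 1.64% lower in QKI-5 iCLIP (Benjamini-Hochberg adjusted p under 0.05). A window could pass the filter on low counts through its QKI-5 counts alone, and 28.0% of those tested had no control event. All 13 plus-strand member windows passed, and 4 of them were called higher and none lower, a share near the background and so no result about the members. These 4 were the third (adjusted p = 0.0102, edgeR), the sixth (log2 fold change 2.18, SE 0.76, adjusted p = 0.0217), the eighth (1.74, SE 0.74, adjusted p = 0.0475) and the eleventh (2.56, SE 0.79, adjusted p = 0.0134). The median log2 fold change was 0.89 over the 13 windows and 2.02 over all tested windows. In the simulation described below, unchanged windows came out at a median of 0.64. Its dispersion was set and not estimated from these libraries, so the offset in the real fit may differ.

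The calls moved with the scaling and with the libraries used. TMM scaling multiplied the library totals by 0.72, 0.66 and 0.64 in the QKI-5 libraries and by 0.70, 1.99 and 2.31 in the controls. With TMM scaling 4 of the 13 had an unadjusted edgeR p under 0.05, beside 3201 of all 6750 tested windows. With library totals the genome-wide calls were 0.859% higher and 1.35% lower, and the medians became 0.04 for the 13 windows and 1.21 for all. None of the 13 was then called (smallest adjusted p = 0.106, edgeR). In the third window, with no control event, it was the adjusted p that moved, from 0.0102 to 0.106, and hardly the fitted difference. The Wald test of DESeq2 called 7 of the 13 higher, beside 44.7% of all windows higher and 1.26% lower. The calls also moved when a library was left out under TMM scaling. When this was QKI-5 replicate 1, 2 or 3, edgeR tested 7, 8 and 8 of the 13 windows and called 0, 2 and 0 higher, beside 8.49%, 34.4% and 22.6% of the 212 to 234 windows it then tested genome-wide. When it was control replicate 1 it called 10 of 13 higher, beside 13.7% of 32338 windows.

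Taken as 1 feature beside 10 kb windows of the genome, of which 0.761% were called higher and 0.107% lower, neither strand passed. The edgeR log2 fold change was 0.97 (SE 0.61, adjusted p = 0.403) for the messenger stretch and 0.97 (SE 0.52, adjusted p = 0.302) for the minus strand, where the median of all 10 kb windows was 0.78. With library totals these values were 0.29 and 0.33, and that median was 0.22.

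**Figure D2:**
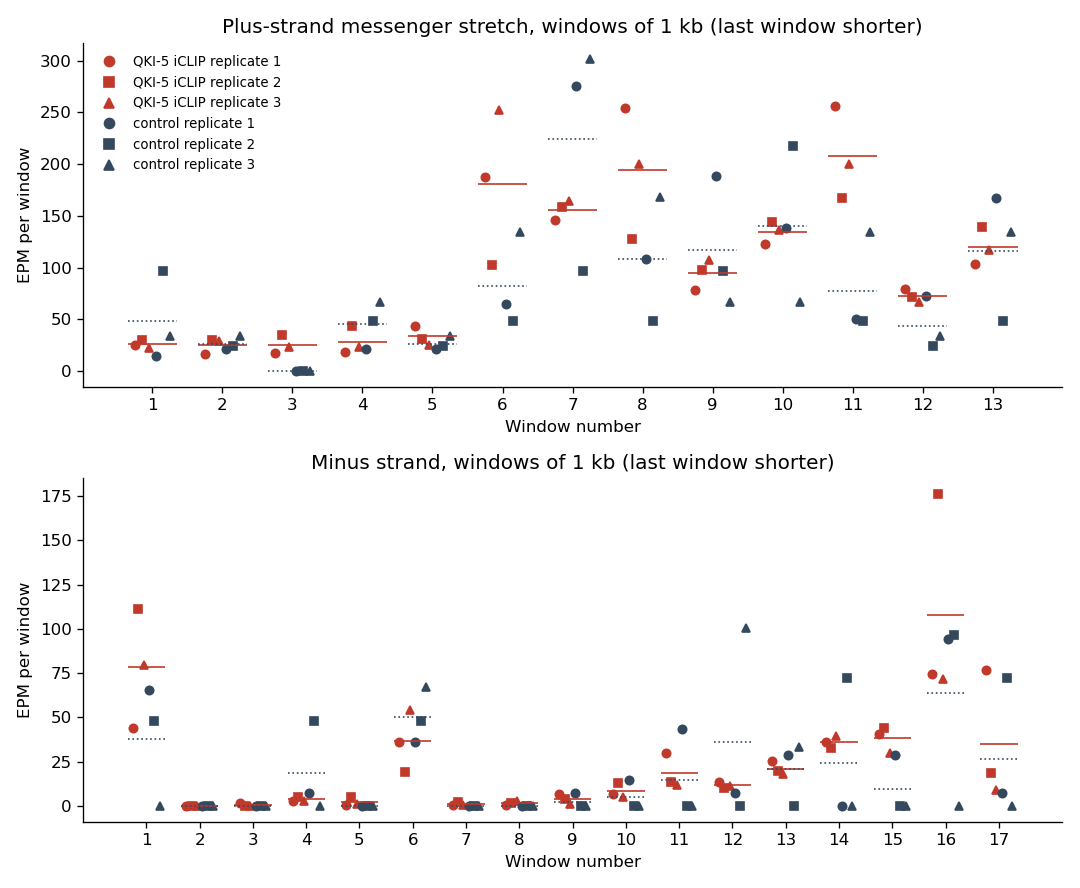
EPM in each 1 kb window (the last window of each strand is shorter) for each library, with the group mean as a solid line (QKI-5 iCLIP) or a dotted line (control). The plus-strand stretch is low in its first 5 windows and higher from the sixth on in both groups. By QKI-5 mean the minus strand is highest in windows 16 and 1, with low values from the second to the tenth window apart from the sixth. By control mean window 6 (50.5 EPM) stands above window 1 (37.8 EPM).

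Within windows the plus-strand signal was uneven. The 5 leading of the 256 bins of 50 nt held 35.7%, 20.6% and 34.6% of the strand's member events in the QKI-5 libraries, and 21.5%, 11.8% and 22.2% in the controls. They were chosen for their QKI-5 signal, so the comparison with controls is a description. The strongest, 8631 to 8680, held 140, 65.8 and 205 EPM in the QKI-5 libraries, and all 50 of its nucleotides carried a QKI-5 event. The controls had 2, 0 and 4 events in it, a pooled ratio of 4.97 (2.28 to 13.5), which is 2.54 without control replicate 1 and 12.8 without control replicate 3.

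The bin 13631 to 13680 was led by QKI-5 replicate 1. It held 143, 56.9 and 67.5 EPM in the QKI-5 libraries with 3 control events, all in replicate 1, a pooled ratio of 7.69 (2.63 to 37.3), or 4.39 without QKI-5 replicate 1. Without control replicate 1 no control event is left there. The bin 11031 to 11080 had 583, 29 and 153 QKI-5 events and no control event, which with the same limit is at least 4.33-fold higher. That bound rests on pooled events, most of them from QKI-5 replicate 1, and leaves out the spread between libraries. The level of the bin was uneven among the QKI-5 libraries, at 80.04, 13.5 and 53.0 EPM. The bin 13131 to 13180 held 35.8, 25.7 and 65.1 EPM with 2 control events (pooled ratio 4.28, 1.18 to 35.4), both in control replicate 2, and the ratio is 1.46 without control replicate 1.

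The bin 9981 to 10030 held 82.4, 80.7 and 82.7 EPM in the QKI-5 libraries, the most even level of the 5 (SD 1.07 EPM, n = 3). The controls held 29, 2 and 4 events there, or 210, 48.2 and 134 EPM, a pooled ratio of 0.491 (0.351 to 0.709). As 29 of the 35 events lay in control replicate 1, the ratio is 0.976 without that library. This bin alone took 6.11%, 6.86% and 6.05% of the messenger-stretch events in the QKI-5 libraries and 18.4%, 5.88% and 11.1% in the controls.

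**Figure D3:**
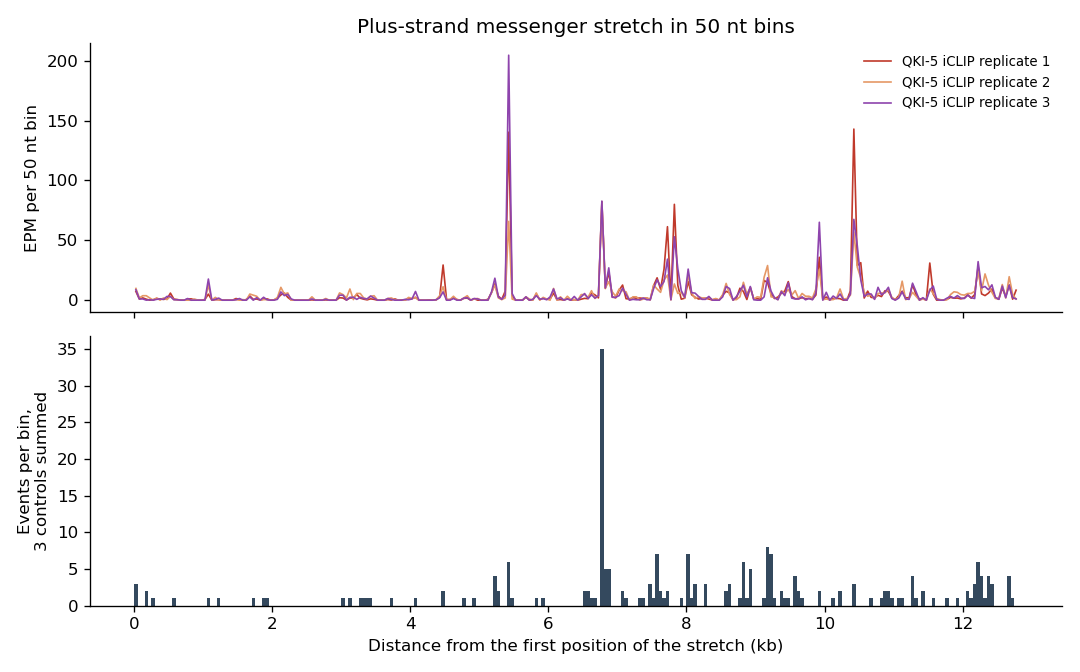
Plus-strand messenger stretch in 50 nt bins by distance from its first position, as EPM in each QKI-5 library (top) and as events summed over the 3 controls (bottom). The tallest QKI-5 bin reaches 205 EPM in replicate 3 and holds 6 control events, while the tallest control bin, with 35 events, stands at 80.7 to 82.7 EPM in the QKI-5 libraries.

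The same bin held the 3 leading single positions. At 10023 there were 15.5, 18.2 and 17.7 EPM in the QKI-5 libraries, at 10024 there were 12.5, 21.5 and 18.0 EPM, and at 10022 there were 12.4, 19.1 and 18.3 EPM. These adjacent nucleotides had 7, 8 and 4 control events, 18 of the 19 in control replicate 1. The positions next in rank were less even. Position 8660 held 3.02, 6.07 and 43.6 EPM, led by QKI-5 replicate 3, and 8649 held 21.1, 2.80 and 14.2 EPM, lowest in QKI-5 replicate 2.

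Positions 13149 and 13148 are neighbours and had no control event. The first held 9.88, 6.999 and 15.9 EPM and the second 5.77, 7.47 and 17.3 EPM, both highest in QKI-5 replicate 3. Position 13656 held 21.3, 5.13 and 5.88 EPM and was highest in QKI-5 replicate 1. None of the 8 leading plus-strand positions carried a QKI-5 event at the same coordinate on the minus strand.

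The minus strand had a different shape, with its densest windows at the ends of the linear reference. Windows 1, 16 and 17 held 49.2%, 64.2% and 47.1% of its events in the QKI-5 libraries and 48.9%, 56.3% and 0% in the controls, while windows 11 to 15, from 10001 to 15000, held 33.6% of the QKI-5 events. Window 16, 15001 to 16000, was the strongest, at 74.7, 176 and 71.6 EPM in the QKI-5 libraries, and 94.3, 96.4 and 0 EPM in the controls. Window 1, 1 to 1000, followed with 43.9, 112 and 79.6 EPM against 65.3, 48.2 and 0 EPM. QKI-5 replicate 2 was the highest library in both, and the groups overlapped in both.

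Window 15, 14001 to 15000, came next by mean, at 40.6, 44.3 and 30.1 EPM in the QKI-5 libraries. The controls held 29.0, 0 and 0 EPM, from 4 events, all below the QKI-5 libraries, though 1 event in control replicate 3 would be 33.5 EPM. Window 14, 13001 to 14000, was even in the QKI-5 libraries at 36.4, 32.7 and 39.8 EPM, while all 3 control events lay in control replicate 2, at 72.3 EPM.

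Windows 11, 12 and 13, from 10001 to 13000, were lower, at QKI-5 means of 18.5, 11.7 and 21.0 EPM. The short window 17, 16001 to 16554, held 76.6, 18.7 and 8.999 EPM with the antibody and 7.25, 72.3 and 0 EPM without it, led by QKI-5 replicate 1 and control replicate 2.

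The minus strand was sparsest in windows 2 to 10, 1001 to 10000, where 1.83% of nucleotides carried a QKI-5 event. They carried 6.15, 5.599 and 7.61 EPM per kb in the QKI-5 libraries and 7.25, 10.7 and 7.45 EPM per kb in the controls, the latter from 9, 4 and 2 events. Opposite the ribosomal side no QKI-5 library had an event from 583 to 2229 (1647 nt) or from 2231 to 3205 (975 nt). The nucleotide between these stretches accounts for all events of window 3, 12 in QKI-5 replicate 1 and none elsewhere. Window 2, 1001 to 2000, had no event in any library, although the plus strand is densest on this side.

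The exception among these was window 6, 5001 to 6000, with 36.0, 19.1 and 54.3 EPM in the QKI-5 libraries and 36.3, 48.2 and 67.1 EPM in the controls. Nearly all of it sat in the bin 5851 to 5900, where 12 nucleotides carried 254, 40 and 144 QKI-5 events and 5, 2 and 2 control events (pooled ratio 0.827, 0.431 to 1.82). Position 5860 alone held 13.2, 8.40 and 39.1 EPM in the QKI-5 libraries, and 2, 1 and 2 events in the controls. Position 5862 was the more even of the pair, at 7.55, 6.999 and 9.35 EPM in the QKI-5 libraries.

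At the high end, the bin 15951 to 16000 led the minus strand with 56.8, 162 and 56.4 EPM in the QKI-5 libraries on 15 nucleotides. The controls held 12, 4 and 0 events in it, a pooled ratio of 0.982 (0.601 to 1.73), which is 1.34 without control replicate 1 and 1.33 without QKI-5 replicate 1. Its inner order changed from library to library. Position 15990 held 5.08, 103 and 34.6 EPM in the QKI-5 libraries, whereas 15994 held 27.9, 6.53 and 3.81 EPM.

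Position 15995 held 3.98, 16.3 and 9.69 EPM in the QKI-5 libraries and had 6, 2 and 0 control events, and 15991 held 4.12, 20.1 and 3.46 EPM with none. The adjoining bin, 16001 to 16050, was almost entirely QKI-5 replicate 1, with 532, 28 and 13 events, so the fifth place it took on this strand rests on that library. At the low end, the bins 351 to 400 and 251 to 300 held 16.9, 34.99 and 26.3 EPM and 7.96, 40.1 and 26.0 EPM, with 4 and 0 control events. Positions 303 and 304 there reached at most 6.92 and 4.67 EPM in a QKI-5 library. None of the 8 leading minus-strand positions carried a plus-strand QKI-5 event at its coordinate.

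Of the 17 minus-strand windows, 9 passed the filter of the genome-wide fit. The edgeR test with TMM scaling called 1 of them higher, window 14 (log2 fold change 2.15, SE 0.90, adjusted p = 0.0429), and none lower, against the 38.6% and 1.64% of all windows. The median log2 fold change was 1.29 over these 9 windows and 2.02 over all tested windows. With library totals the edgeR test called none of the 9 (smallest adjusted p = 0.411), and its median was 0.50. The DESeq2 Wald test called 4 of the 9 higher, beside 44.7% of all windows. With TMM scaling 4 of the 9 had an unadjusted edgeR p under 0.05, beside 3201 of all 6750 tested windows. Of the tested windows, window 15 alone had every QKI-5 library above every control, 1 of 9 beside the 43.4% of all tested windows. When a QKI-5 library was left out only 2, 1 and 1 of these windows could be tested, and none was called. When control replicate 1, 2 or 3 was left out, 7 of 11, 2 of 12 and 2 of 12 were called higher, beside 13.7%, 5.61% and 8.83% of all windows then tested.

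**Figure D4:**
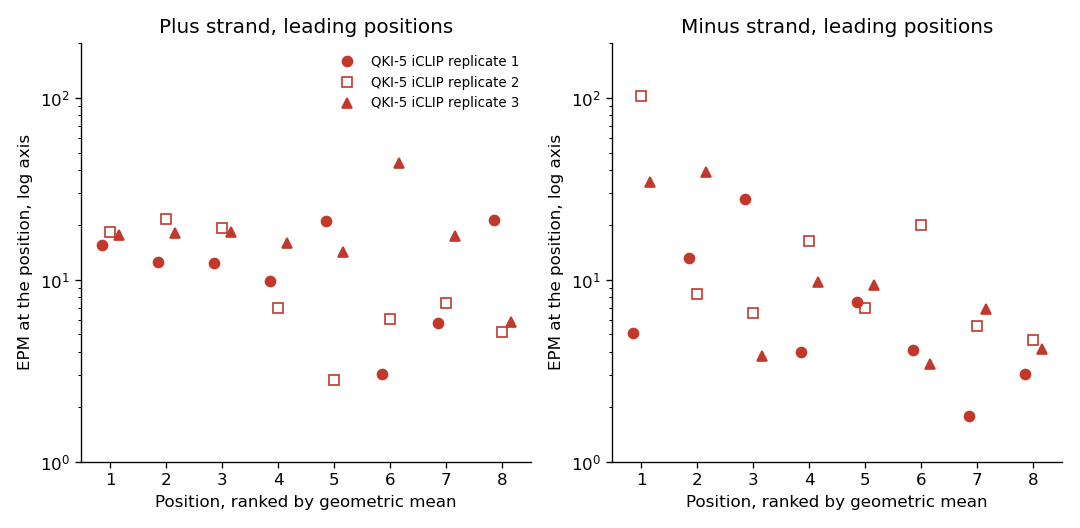
EPM (log axis) of the 8 positions per strand with the highest geometric mean over the 3 QKI-5 libraries, 1 point per QKI-5 library. The first 3 plus-strand positions lie within 12.4 to 21.5 EPM in all 3 libraries, while the first minus-strand position spans 5.08 to 103 EPM.

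The QKI-5 libraries resembled each other in where the events lay. Across 256 bins of 50 nt of the plus-strand stretch, Pearson's r of log2(EPM + 1) was 0.847 to 0.900 between QKI-5 libraries, 0.104 to 0.218 between controls and 0.224 to 0.541 between a QKI-5 library and a control. Across 332 bins of the minus strand the ranges were 0.725 to 0.795, 0.154 to 0.390 and 0.190 to 0.522. Bins of a library are not replicates, and the few control events limit any correlation with a control. Over the 13 windows of 1 kb on the plus strand the controls correlated with each other at 0.818 to 0.890 and the QKI-5 libraries at 0.906 to 0.954.

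At the level of single nucleotides fewer positions were shared. Of 3410 plus-strand positions hit in a QKI-5 library, 2223 were hit in 1, 851 in 2 and 336 in all 3, and the 336 held 45.1% of the QKI-5 events of the stretch. On the minus strand 62 of 1121 positions were hit in all 3, and they held 39.8% of the events. Control events fell largely on positions also hit with the antibody. On the plus strand these were 125 of 164 control positions (76.2%) and 3.67% of the QKI-5 positions, and 79.8% of 228 control events lay on them, where QKI-5 events cover 26.7% of the nucleotides. On the minus strand they were 23 of 41 control positions (56.1%) and 2.05% of the QKI-5 positions, with 66.7% of 69 control events, where QKI-5 events cover 6.77% of the nucleotides.

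In the QKI-5 libraries, hit positions carried more events than the average of the genome, and fewer than the ribosomal side of the same strand. A hit plus-strand position carried 4.002, 2.14 and 3.04 events on average in the QKI-5 libraries, and a minus-strand position 3.87, 3.25 and 3.22, where all positions of these libraries averaged 1.39, 1.72 and 1.75 and those of the ribosomal side 37.3, 24.9 and 23.5. In the controls the averages were 1.37, 1.21 and 1.33 on the plus strand and 1.42, 1.45 and 2 on the minus strand, where all positions averaged 1.30, 1.61 and 1.62. Only control replicate 1 on both strands and control replicate 3 on the minus strand lay above their genome average. The groups did not overlap on either strand (two-sided exact permutation p = 0.1, adjusted p = 0.167), but the libraries differ in depth. In a single random draw of 34 plus-strand member events per library, the averages were 1.06, 1.03 and 1.00 with the antibody and 1.21, 1.21 and 1.36 without it, so the order turned. The 10 largest positions held 11.4%, 9.16% and 13.2% of the plus-strand member events with the antibody and 25.3%, 47.1% and 52.8% without it, and in that draw 35.3%, 32.4% and 29.4% against 47.1%, 47.1% and 55.9%. The draw equalizes the member events, of which the controls had 34 to 158, and not the depth of the libraries.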

How the data were processed

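The data are 6 iCLIP libraries of BEAS2B cells, 3 made with an anti-QKI-5 antibody and 3 without, grouped and numbered by their titles. The authors deposited, for each library, whole-number counts of crosslink events per nucleotide and strand, not normalized. The submitters' processing notes name Bowtie, cutadapt and hg19. Their versions, the merging of PCR copies and the treatment of reads with more than 1 alignment are not stated in these sources.

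Events were summed over strand-specific 1 kb windows of the whole genome, with the plus strand of chrM tiled from position 3231, and tested with edgeR 4.0.16 (glmQLFit and glmQLFTest, TMM, filterByExpr, group as the only term, R 4.3.3) and, as an alternative, DESeq2 1.42.0. P-values were adjusted over all 6750 tested windows. On simulated counts for 6750 windows of QKI-5 iCLIP against control with a dispersion of 0.04, it called 100% of 50 windows raised 16-fold, 70% of 50 raised 4-fold, 34% of 50 lowered to 0.0625, 2% of 50 lowered to 0.25 and 0.0611% of 6550 unchanged windows. This dispersion was set and not estimated from these libraries, so the rates may not hold for the real counts. The fitted log2 fold changes lay above the simulated ones. Their median was 0.64 for unchanged windows, 3.16 for those raised 4-fold and -1.03 for those lowered to 0.25. For shares and ratios an exact permutation test, two-sided, was run, 10 tests in all. Python 3.11.15, numpy 2.4.6, pandas 2.3.3, scipy 1.17.1 and matplotlib 3.10.9 were used.

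Items named are every called window, on each strand the 3 windows with the highest and the 2 with the lowest mean EPM in QKI-5 libraries, the window with the largest fold change, and the 5 bins of 50 nt and 8 positions with the highest geometric mean EPM; the other windows were added after their values were seen. Members and rules were chosen with earlier results of these data known. Sequence motifs, genes and cell markers, which were planned, need a genome or annotation of hg19 and were not analysed here. Alternatives were other scalings, no filter, positions counted once, a replicate block, 10 kb windows, other bounds and denominators, thinning, and each library left out.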

Additional observations from a re-analysis of the deposited data

How the results depend on the processing

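Values for shares and ratios are log2 of the QKI-5 mean over the control mean. Left out 1 library at a time, the share of the messenger stretch gave 0.14 to 0.40 (0.29 with all), that of the minus strand 0.16 to 0.58 (0.39), that of the ribosomal side -0.95 to -0.48 (-0.66), minus over plus -0.28 to 0.45 (0.02, so no direction), the messenger stretch over the ribosomal side 0.81 to 1.30 (1.04) and the minus strand over it 0.89 to 1.38 (1.09). Counting each position once turned the shares of the messenger stretch and minus strand to -0.73 and -0.64, and took that of the ribosomal side to -3.29. The position count depends on depth, in which the groups differ. Leaving out the 10 largest positions of each region, moving the bounds inward by 100 nt and taking events outside chrM as the total kept the direction of every share and ratio they apply to. Events per position gave 0.99 to 1.43 on the plus strand and 0.99 to 1.26 on the minus strand with 1 library left out, and turned to -0.29 and -0.39 when thinned. The minus-strand turn rests on control replicate 3. The thinned values there were 1.0, 1.2 and 1.0 with the antibody and 1.0, 1.2 and 2.0 without it. The share of the 10 largest positions gave -2.15 to -1.68 and -1.43 to -1.01, and thinning to 6 minus-strand events left no difference, 0, since 10 positions then hold them all.

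The genome-wide calls were 2605 higher and 111 lower of 6750 windows tested. Of the same number tested, they became 58 higher with library totals, 3126 with DESeq2 size factors and 3015 by the DESeq2 Wald test. They became 590 with each position counted once (2314 windows tested), 39882 with no filter (886018 tested), 228 with 10 kb windows (29959 tested) and 18 to 4428 with 1 library left out. Lower calls became 73 with DESeq2 size factors, 1 with no filter, 32 with 10 kb windows and 4 to 39 with 1 library left out. The 4 plus-strand member calls became 0 with library totals, 7 by the DESeq2 Wald test, 1 with each position counted once and 0 to 10 with 1 library left out. The single minus-strand call became 0 with library totals, 5 with DESeq2 size factors, 4 by the DESeq2 Wald test, 0 with each position counted once, 9 with no filter and 0 to 7 with 1 library left out. Each position counted once called 1 of 6 minus-strand windows lower, beside 136 of 2314 windows. The cause was not tested, but fits without a library tested between 212 and 39544 windows. The filter on low counts was run anew on the libraries left in each of them. Counted once, the log2 fold change turned to -0.041 for the second plus-strand window and -0.85 for minus-strand window 16.

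Same-numbered libraries were not taken as pairs, since their deviations correlated at -0.08, 0.16 and 0.097 for numbers 1, 2 and 3, not all above 0.1, and not every library correlated best with its own number. A block for the replicate number left edgeR with 0 windows higher and 0 lower genome-wide (smallest adjusted p = 0.0703, 1285 at an unadjusted p under 0.05), and so 0 on the plus-strand and 0 on the minus-strand members, and the rest of the plus strand of chrM as 1 feature turned from -0.01 to 0.18. The smallest control total on the minus strand, 6 events, limits every control value there. Leaving out each library in the pooled ratios, and library totals or a block in the 10 kb fit, were chosen after seeing the data.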

Other observations

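On the plus strand beyond the messenger stretch, after position 16023, the QKI-5 libraries held 11, 5 and 2 events in replicates 1, 2 and 3, or 1.51, 2.33 and 0.692 EPM, and the controls none. Taking 3 events in each control as the limit for a count of 0 gives 21.8, 72.3 and 100.6 EPM in controls 1, 2 and 3. A difference was thus not detectable at this depth.

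Of the plus-strand member positions, 237 were also hit on the minus strand. Without the 10 largest positions of each region, chosen on these same counts, each QKI-5 share lay above each control share on both strands. The means were 0.117 ± 0.00710% against 0.0935 ± 0.0143% for the messenger stretch and 0.0271 ± 0.00350% against 0.0184 ± 0.00459% for the minus strand (SD, n = 3 each, two-sided exact permutation p = 0.1 for both, the smallest this test allows). The groups overlapped on the ribosomal side in this setting (two-sided exact permutation p = 0.2). With each position counted once, by contrast, each QKI-5 share of the messenger stretch lay below each control share (two-sided exact permutation p = 0.1). That count depends on depth, in which the groups differ, so it does not decide the direction.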
